A study of Mus musculus with 10 samples.

Results

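Layer transcription factors are the nuclear proteins by which the projection neurons of the cerebral cortex are usually told apart by layer. The counts of 9 of them, Cux1, Cux2, Rorb, Etv1, Pou3f1, Bcl11b, Fezf2, Tbr1 and Foxp2, were followed across ribosome-bound RNA from mouse somatosensory cortex. They were chosen by gene symbol from the 55536 genes of the count table, and each symbol matched 1 Ensembl gene of GENCODE M21 (GRCm38). All 9 had reads in each of the 10 libraries, with a lowest raw count of 79, and all 9 passed the filter on low counts. The RNA came from translating ribosome affinity purification (TRAP): a Cre-dependent adeno-associated virus, AAV5-EF1α-Flex-EGFPL10a, puts GFP on the ribosomal protein L10a, and antibodies against GFP pull down the tagged ribosomes. The virus was injected into the S1DZ, a zone of primary somatosensory cortex, and tissue was taken 4 weeks later. The groups were Il-17rb-Cre mice (3 libraries), Il-17ra-Cre mice (3 libraries) and Il-17rc-Cre mice (4 libraries), so all 3 groups carried a Cre driver and the same virus, and no group lacked them. Cre was driven from an interleukin-17 receptor gene in each line, and the EF1α promoter of the virus is active in most cell types. The sources used here give no age, sex, strain background or pooling of animals. Since they also do not state that each replicate is another animal, p-values cover only library-to-library spread, which may be technical.

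The cortex holds excitatory projection neurons in layers that differ in their targets, and each layer is made under a set of factors that repress one another during development. Cux1 and Cux2, a pair of CUT homeodomain proteins, mark the upper layers, and the nuclear receptor Rorb marks layer 4, the layer that receives sensory input from the thalamus. Fezf2 and its downstream factor Bcl11b (Ctip2) direct the layer 5 neurons that project out of the forebrain, and the ETS factor Etv1 and the POU factor Pou3f1 (Oct6, Scip) also mark layer 5. Tbr1, a T-box factor, and Foxp2, a forkhead factor, mark layer 6, whose neurons project back to the thalamus. Several of these genes are used outside this setting as well: Bcl11b and Foxp2 in projection neurons of the striatum, Tbr1 in most young cortical excitatory neurons, and Pou3f1 in myelinating Schwann cells of the peripheral nerve. The series asks which RNAs are bound to ribosomes in the cells that each receptor driver marks.

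Promoter windows of 4 members are shown because these 2 pairs had the closest patterns over the libraries, Fezf2 with Tbr1 and Cux1 with Cux2, as described further on. Each runs from 250 bases before to 50 bases after a transcription start in RefSeq (GRCm38.p6), 5′ to 3′ on the strand of the gene. These starts lay 2324, 1523, 1509 and 251 bases from the GENCODE gene start for Fezf2, Tbr1, Cux1 and Cux2. Other starts of these genes were thus not searched, and of the 2 windows of Cux2 the nearer is shown. Capitals mark every match, on either strand, to the motifs that were searched.
Fezf2, chr14:12345816-12346115, minus strand: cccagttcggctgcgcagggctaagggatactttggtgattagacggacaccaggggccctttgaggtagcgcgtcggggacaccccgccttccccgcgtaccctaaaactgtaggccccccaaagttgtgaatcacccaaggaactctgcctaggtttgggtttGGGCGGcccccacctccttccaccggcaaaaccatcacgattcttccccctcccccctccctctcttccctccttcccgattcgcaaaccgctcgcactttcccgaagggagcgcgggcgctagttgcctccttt
Tbr1, chr2:61804203-61804502, plus strand: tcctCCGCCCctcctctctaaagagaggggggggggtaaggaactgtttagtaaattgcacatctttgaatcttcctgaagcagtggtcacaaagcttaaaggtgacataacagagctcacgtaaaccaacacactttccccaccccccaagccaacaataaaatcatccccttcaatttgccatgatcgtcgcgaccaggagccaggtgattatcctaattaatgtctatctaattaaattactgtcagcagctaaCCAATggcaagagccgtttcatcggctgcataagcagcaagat
Cux1, chr5:136565932-136566231, minus strand: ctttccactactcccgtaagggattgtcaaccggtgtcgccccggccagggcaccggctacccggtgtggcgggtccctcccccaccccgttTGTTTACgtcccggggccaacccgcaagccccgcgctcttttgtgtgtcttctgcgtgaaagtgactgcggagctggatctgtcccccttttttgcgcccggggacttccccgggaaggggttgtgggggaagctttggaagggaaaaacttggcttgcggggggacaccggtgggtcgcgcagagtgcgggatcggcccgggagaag
Cux2, chr5:122049802-122050101, minus strand: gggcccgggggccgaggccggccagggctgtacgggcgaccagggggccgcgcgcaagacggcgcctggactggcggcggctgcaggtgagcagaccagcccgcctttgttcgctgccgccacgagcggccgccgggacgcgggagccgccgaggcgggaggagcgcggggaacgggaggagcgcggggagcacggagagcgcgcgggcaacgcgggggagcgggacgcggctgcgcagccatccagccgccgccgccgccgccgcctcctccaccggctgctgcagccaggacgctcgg

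The search on both strands covered 10 motifs, among them AGGTGT as the half-site of T-box factors, AGGTCA as the half-site bound by ROR receptors and ATCGAT as the site of CUT homeodomains. The other transcription factor motifs were CCGGAAG for the core of ETS sites, TGTTTAC for forkhead proteins, ATGCAAAT for the octamer of POU factors and CAGCTG for one form of the E-box. The general promoter motifs were GGGCGG for the GC box, TATAAA for the TATA box and the CCAAT box, spelled as named. The Fezf2 window held a GC box on its own strand, which 35.7% of the 32851 mouse promoter windows of this length hold on either strand. The Tbr1 window held a GC box on the opposite strand and a CCAAT box, a motif in 37.4% of windows. The Cux1 window held the forkhead site, found in 3.65% of windows, and the Cux2 window held none of the 10 motifs. No matches overlapped one another in these windows. The T-box, ROR, CUT, ETS, POU, E-box and TATA motifs had no match in any of the 4 windows, and occur in 13.7%, 16.3%, 0.925%, 8.86%, 1.74%, 16.3% and 13.6% of all windows. The members of a pair did not share base composition: GC content was 61.3% at Fezf2 with 20 CpG dinucleotides and 46.0% at Tbr1 with 7, while Cux1 had 65.0% with 25 and Cux2 80.3% with 48. The median over all windows was 52.7% GC with 7 CpG dinucleotides. RefSeq windows were found for 7 of the 9 members. The other two, Foxp2 and Pou3f1, are named only.

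Total counts ran between 39692925 and 165844244 reads per library, with 21205 to 24790 genes detected. Levels are given in CPM, the read count per library size after TMM scaling. Of the driver genes, Il17rb was at 0.614 to 0.872 CPM in Il-17rb-Cre libraries, against 1.27 to 3.75 CPM in Il-17ra-Cre and 0.0667 to 2.72 CPM in Il-17rc-Cre libraries, so it was not highest under its own label. Il17rc was at 1.03 to 3.19 CPM in Il-17rb-Cre, 21.3 to 41.2 CPM in Il-17ra-Cre and 20.3 to 39.9 CPM in Il-17rc-Cre libraries, and the ranges of Il17ra overlapped between all groups. Directions therefore rest on the labels as deposited. Markers of other cell types differed strongly between and within groups: the summed level of 10 excitatory neuron markers was 20400 to 23300 CPM in Il-17rb-Cre, 1930 to 7620 CPM in Il-17ra-Cre and 2930 to 4810 CPM in Il-17rc-Cre libraries. Nrgn alone gave 14180 to 18130, 1160 to 5502 and 1383 to 2860 CPM of these sums, in the same order of groups. The geometric mean of the 10 markers was 637 to 693, 84.4 to 264 and 152 to 198 CPM. Within the Il-17ra-Cre group, replicate 3 stood apart, with 7624 CPM of excitatory and 5413 CPM of oligodendrocyte markers, against 1933 and 2359 CPM of excitatory and 45290 and 30970 CPM of oligodendrocyte markers in replicates 1 and 2. Rpl10a, the gene of the ribosomal protein that carries the tag, was at 678.6 CPM in that replicate and at 58.6 and 70.9 CPM in replicates 1 and 2, beside 602.2 to 669.4 CPM in Il-17rb-Cre and 190.7 to 267 CPM in Il-17rc-Cre libraries, and its part in the results was not tested. In such pull-downs, fewer cells of a type and less RNA per cell cannot be told apart. Each layer factor is therefore given on a pair of scales, as CPM and as a percentage of the geometric mean of the 10 excitatory markers in the same library.

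On the CPM scale most of the layer factors were higher in Il-17rb-Cre libraries, and on the scale of the excitatory markers none was. Against Il-17ra-Cre libraries, Cux1, Cux2, Bcl11b, Fezf2, Tbr1 and Foxp2 rose and Etv1 fell in CPM, 6 and 1 of 9, where 16.2% of the 20301 genes tested were higher and 24.1% lower (40.3% in either direction; edgeR quasi-likelihood test, Benjamini-Hochberg adjusted p under 0.05). Against Il-17rc-Cre libraries, Cux1, Cux2, Fezf2, Tbr1 and Pou3f1 rose, 5 of 9 with 0 lower (1 lower at an unadjusted p under 0.05, 1 by DESeq2 and 0 by limma voom), where 17.6% of all genes were higher and 21.7% lower (39.3% in either direction). Between Il-17ra-Cre and Il-17rc-Cre libraries only Pou3f1 passed, 1 of 9 higher and 0 lower, where 1.32% of all genes were higher and 0.759% lower (2.07% in either direction). At an unadjusted p under 0.05, 2 were higher and 2 lower there, beside 2181 and 1536 of the 20301 genes tested. DESeq2 called 2 and 2 of the factors and 2101 of all genes in either direction. With limma voom these were 2 and 3 of the factors and 4579 of all genes. The median log2 fold change of the 9 factors was 1.37, 1.24 and 0.03 in these 3 comparisons, beside medians over all tested genes of -0.092, 0.023 and 0.032. Relative to the excitatory markers, 5 of 9 factors fell in Il-17rb-Cre against Il-17ra-Cre libraries and 3 of 9 against Il-17rc-Cre libraries, none rose, and the median of the 9 was -0.85 and -0.67. With pan-neuronal in place of excitatory markers, 3 of the 5 calls against Il-17ra-Cre (Rorb, Etv1 and Pou3f1) and all 3 against Il-17rc-Cre (Bcl11b, Rorb and Etv1) still passed, and those of Cux1 and Bcl11b against Il-17ra-Cre did not. Scaling to the excitatory markers moves the median of all genes to -2.46 and -1.90, with 76.9% and 70.8% of genes lower and 0.251% and 0.167% higher (77.2% and 70.9% in either direction), so the median of the factors lay above that of all genes there. With the excitatory markers as the scale, 0 of 9 factors and 0% of all genes passed for Il-17ra-Cre against Il-17rc-Cre (edgeR; 2 factors higher and 0 lower at an unadjusted p under 0.05, against 2972 and 455 of all genes). The 3 comparisons share libraries, so they are not independent of one another.

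**Figure D1:**
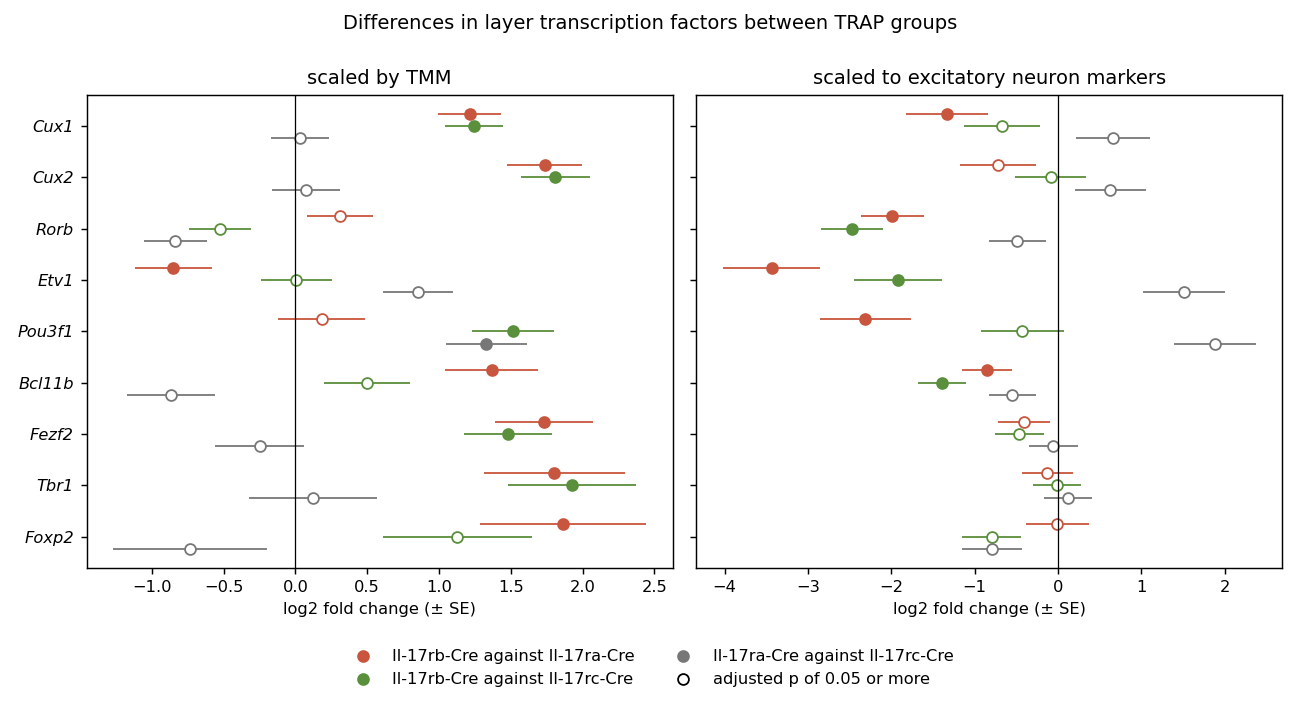
Log2 fold changes of the 9 layer factors (± SE; horizontal axes) for the 3 comparisons, from TMM-scaled counts (left) and from counts scaled to the excitatory neuron markers (right). Filled points passed an edgeR adjusted p of 0.05. On the left, 6 of the 7 filled red points lie right of 0, whereas all filled points on the right lie below 0, so Cux1 and Bcl11b change direction between the panels. With the scaling on the right, 76.9% of all genes were called lower in Il-17rb-Cre against Il-17ra-Cre and 70.8% against Il-17rc-Cre.

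The upper-layer factors Cux1 and Cux2 had the steadiest difference between Il-17rb-Cre and the other groups in CPM. Cux1 (ENSMUSG00000029705, GRCm38 chromosome 5, 136248135 to 136567490, minus strand) was at 115, 132 and 124 CPM in Il-17rb-Cre replicates, at 70.4, 52.45 and 37.5 CPM in Il-17ra-Cre replicates and at 57.9, 54.2, 53.3 and 43.7 CPM in Il-17rc-Cre replicates. Cux2 (ENSMUSG00000042589, chromosome 5, 121856366 to 122050102, minus strand) was at 49.7, 41.6 and 54.5 CPM in Il-17rb-Cre, at 16.2, 15.0 and 12.6 CPM in Il-17ra-Cre and at 20.0, 13.7, 11.9 and 9.85 CPM in Il-17rc-Cre replicates. For both genes every Il-17rb-Cre library lay above every other library, and the remaining groups overlapped. Cux1 rose by a log2 fold change of 1.21 ± 0.22 (SE) against Il-17ra-Cre (edgeR adjusted p = 0.00176) and of 1.24 ± 0.20 against Il-17rc-Cre (edgeR adjusted p = 9.05e-04), whereas it fell by 1.33 ± 0.49 against Il-17ra-Cre when scaled to the excitatory markers (edgeR adjusted p = 0.0276). With that scaling the median of all genes against Il-17ra-Cre was -2.46. The values that follow are again from CPM. Cux2 rose by 1.74 ± 0.26 against Il-17ra-Cre (edgeR adjusted p = 6.85e-04) and by 1.81 ± 0.24 against Il-17rc-Cre (edgeR adjusted p = 2.92e-04). Between Il-17ra-Cre and Il-17rc-Cre the log2 fold changes were 0.03 ± 0.20 for Cux1 and 0.07 ± 0.24 for Cux2 (edgeR adjusted p = 0.96 and 0.922).

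Set against the excitatory markers, Cux1 stood at 18.1%, 19.1% and 18.8% of their geometric mean in the Il-17rb-Cre replicates. It stood at 83.4%, 43.5% and 14.2% in the Il-17ra-Cre replicates and at 30.6%, 32.8%, 26.9% and 28.6% in the Il-17rc-Cre replicates. The Il-17ra-Cre values thus lay on both sides of the Il-17rb-Cre values, while all Il-17rc-Cre values lay above them. Over all genes the median for Il-17rb-Cre against Il-17rc-Cre was -1.90 on that scale. The fall against Il-17ra-Cre missed the threshold without Il-17ra-Cre replicate 1 (-0.63, edgeR adjusted p = 0.174) or any of Il-17rb-Cre replicates 1, 2 and 3 (-1.31, -1.35 and -1.34, edgeR adjusted p = 0.0736, 0.0679 and 0.0689). Without Il-17ra-Cre replicates 1 and 2 together its sign turned (0.395, edgeR adjusted p = 0.106). Against Il-17rc-Cre the difference was -0.67 ± 0.46 (edgeR adjusted p = 0.203), and it passed without Il-17ra-Cre replicate 3 (-0.67, edgeR adjusted p = 0.0167). Cux2 stood at 7.36 ± 1.20% (SD, n = 3) in Il-17rb-Cre, 12.1 ± 7.20% (n = 3) in Il-17ra-Cre and 7.83 ± 2.08% (n = 4) in Il-17rc-Cre libraries, and no comparison passed (-0.72 ± 0.46, -0.09 ± 0.43 and 0.63 ± 0.42, edgeR adjusted p = 0.171, 0.861 and 0.44). Without Il-17ra-Cre replicate 3, Cux2 passed in both comparisons with that group, at -1.10 for Il-17rb-Cre against Il-17ra-Cre and 1.01 for Il-17ra-Cre against Il-17rc-Cre (edgeR adjusted p = 0.00711 and 0.0211). Without the same library Cux1 reached 1.09 for Il-17ra-Cre against Il-17rc-Cre (edgeR adjusted p = 0.00697), beside 0.66 ± 0.45 with it (edgeR adjusted p = 0.442). The Cux1 gene also encodes CASP, a Golgi protein made by alternative splicing, and the counts do not separate the products.

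**Figure D2:**
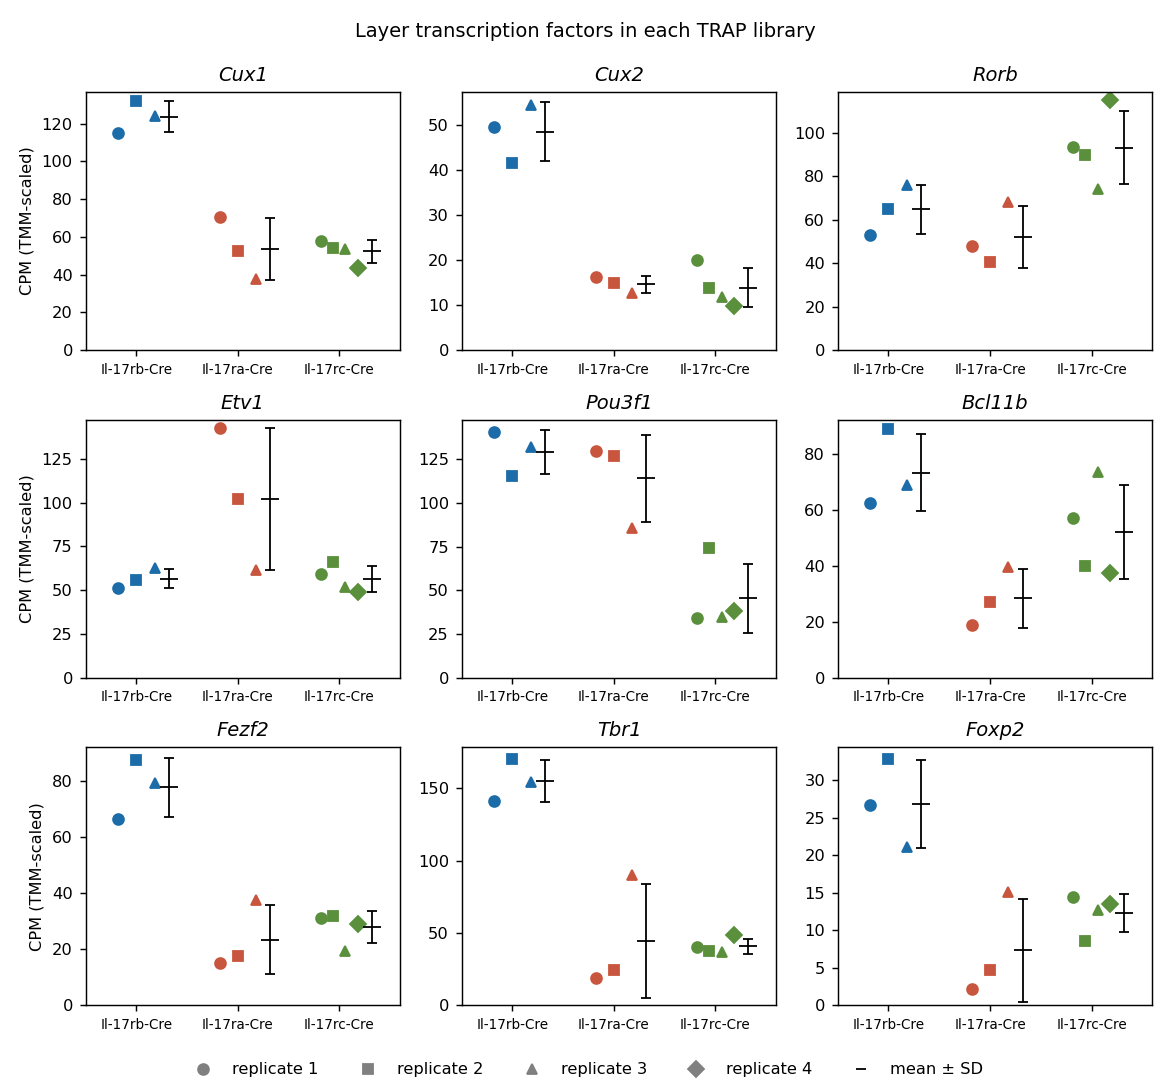
TMM-scaled CPM (vertical axes, starting at 0) of the 9 layer factors in the 10 TRAP libraries, by driver line, with the mean ± SD beside the points. Cux1, Cux2, Fezf2, Tbr1 and Foxp2 are highest in all 3 Il-17rb-Cre libraries in CPM, an order that is absent on the scale of the excitatory markers, whereas Rorb and Etv1 are not highest there.

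Rorb, the layer 4 factor, overlapped between Il-17rb-Cre and both other groups in CPM, and was lowest in Il-17rb-Cre relative to the excitatory markers. Rorb (ENSMUSG00000036192, chromosome 19, 18930605 to 19111196, minus strand) was at 53.2, 65.2 and 75.9 CPM in Il-17rb-Cre replicates, at 47.8, 40.6 and 68.1 CPM in Il-17ra-Cre replicates and at 93.4, 89.9, 74.4 and 115 CPM in Il-17rc-Cre replicates. Il-17rb-Cre libraries overlapped with both other groups, and all Il-17ra-Cre libraries lay below all Il-17rc-Cre libraries. No comparison in CPM passed, at 0.31 ± 0.23 for Il-17rb-Cre against Il-17ra-Cre, -0.52 ± 0.22 for Il-17rb-Cre against Il-17rc-Cre and -0.84 ± 0.22 for Il-17ra-Cre against Il-17rc-Cre (edgeR adjusted p = 0.313, 0.0824 and 0.0809). Without Il-17ra-Cre replicate 3 the values against Il-17rc-Cre passed, at -0.52 for Il-17rb-Cre and -1.08 for Il-17ra-Cre (edgeR adjusted p = 0.0381 and 0.0126). As a share of the excitatory marker mean, Rorb was at 8.34%, 9.41% and 11.5% in Il-17rb-Cre libraries, against 56.6%, 33.7% and 25.8% in Il-17ra-Cre and 49.3%, 54.4%, 37.6% and 75.4% in Il-17rc-Cre libraries. No Il-17rb-Cre library reached the lowest of the other groups on that scale. There Rorb fell by 1.99 ± 0.38 against Il-17ra-Cre and fell by 2.47 ± 0.37 against Il-17rc-Cre (edgeR adjusted p = 7.04e-04 and 3.22e-04), and for Il-17ra-Cre against Il-17rc-Cre it was at -0.49 ± 0.34 (edgeR adjusted p = 0.457). Most genes fell in Il-17rb-Cre on that scale, with medians over all genes of -2.46 and -1.90 and 76.9% and 70.8% called lower. The summed level of 12 astrocyte markers, a cell type in which Rorb is also known to be transcribed, was 645 to 661 CPM in Il-17rb-Cre, 7040 to 13700 CPM in Il-17ra-Cre and 11600 to 18100 CPM in Il-17rc-Cre libraries, with none of the 12 at 0. Its part in the Rorb values was not tested.

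Etv1 and Pou3f1, both used as layer 5 markers, were high in the Il-17ra-Cre libraries with the fewest excitatory markers. Pou3f1, unlike Etv1, was similarly high in the Il-17rb-Cre libraries, which had the most excitatory markers. Etv1 (ENSMUSG00000004151, chromosome 12, 38779380 to 38870484, plus strand) was at 51.5, 55.9 and 62.5 CPM in Il-17rb-Cre replicates, at 142.9, 101.9 and 61.5 CPM in Il-17ra-Cre replicates and at 59.1, 65.8, 52.0 and 48.8 CPM in Il-17rc-Cre replicates. Only Il-17ra-Cre replicates 1 and 2 lay above all other libraries, and replicate 3 lay among them, so the groups overlapped. Etv1 fell by 0.85 ± 0.27 in Il-17rb-Cre against Il-17ra-Cre (edgeR adjusted p = 0.0279), and the other comparisons did not pass (0.0046 ± 0.25 for Il-17rb-Cre and 0.85 ± 0.25 for Il-17ra-Cre, each against Il-17rc-Cre; edgeR adjusted p = 0.991 and 0.0976). The fall was lost without Il-17ra-Cre replicate 1 or 2 (-0.51 and -0.87, edgeR adjusted p = 0.12 and 0.0674) and without Il-17rb-Cre replicate 1, 2 or 3 (-0.78, -0.85 and -0.94, edgeR adjusted p = 0.0982, 0.0835 and 0.0562). Without Il-17ra-Cre replicate 3, Etv1 was higher in Il-17ra-Cre than in Il-17rc-Cre libraries by 1.12 (edgeR adjusted p = 0.00522). Its level relative to the excitatory markers was 8.54 ± 0.82% in Il-17rb-Cre, 92.4 ± 73.3% in Il-17ra-Cre and 32.3 ± 5.60% in Il-17rc-Cre libraries (SD, n = 3, 3 and 4). Over all genes the medians for Il-17rb-Cre on that scale were -2.46 against Il-17ra-Cre and -1.90 against Il-17rc-Cre. All Il-17rb-Cre libraries lay below all others there, and Etv1 fell by 3.43 ± 0.58 against Il-17ra-Cre and by 1.92 ± 0.53 against Il-17rc-Cre (edgeR adjusted p = 4.09e-04 and 0.00793). The first value was -2.66 without Il-17ra-Cre replicate 1 and -1.45 without replicates 1 and 2. For Il-17ra-Cre against Il-17rc-Cre it was at 1.51 ± 0.50 (edgeR adjusted p = 0.199), or 1.97 without Il-17ra-Cre replicate 3 (edgeR adjusted p = 0.00122).

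Pou3f1 (ENSMUSG00000090125, chromosome 4, 124656807 to 124660655, plus strand) was at 140.6, 116 and 132 CPM in Il-17rb-Cre replicates, at 130.1, 127 and 85.5 CPM in Il-17ra-Cre replicates and at 34.2, 74.5, 34.5 and 38.0 CPM in Il-17rc-Cre replicates. Il-17rb-Cre and Il-17ra-Cre libraries overlapped, and all 6 lay above the Il-17rc-Cre libraries. Pou3f1 rose in Il-17rb-Cre against Il-17rc-Cre libraries by 1.51 ± 0.28 (edgeR adjusted p = 0.00229), and the difference from Il-17ra-Cre was 0.18 ± 0.31 (edgeR adjusted p = 0.669). It also rose in Il-17ra-Cre against Il-17rc-Cre libraries, by 1.33 ± 0.28 (edgeR adjusted p = 0.0476). The last call was lost in each fit that left out 1 library, except those without Il-17ra-Cre replicate 3 or Il-17rc-Cre replicate 2, with log2 fold changes of 1.16 to 1.68 (edgeR adjusted p = 0.0132 to 0.177). The lost values were 1.16 and 1.21 without Il-17ra-Cre replicates 1 and 2, 1.28 without any 1 Il-17rb-Cre replicate, and 1.22, 1.22 and 1.26 without Il-17rc-Cre replicates 1, 3 and 4. In proportion to the excitatory markers, Pou3f1 was at 22.1%, 16.7% and 20.0% in Il-17rb-Cre, 154.2%, 105.1% and 32.3% in Il-17ra-Cre and 18.1%, 45.0%, 17.4% and 24.9% in Il-17rc-Cre libraries. Every Il-17ra-Cre value exceeded every Il-17rb-Cre value, and Il-17rc-Cre values overlapped with both. Pou3f1 fell there by 2.31 ± 0.55 in Il-17rb-Cre against Il-17ra-Cre (edgeR adjusted p = 0.00282), a call lost without Il-17ra-Cre replicates 1 and 2 together (-0.72, edgeR adjusted p = 0.241). Over all genes the median for Il-17rb-Cre against Il-17ra-Cre was -2.46 there. Neither Pou3f1 comparison with Il-17rc-Cre passed (-0.43 ± 0.50 and 1.88 ± 0.49, edgeR adjusted p = 0.449 and 0.13). Without Il-17ra-Cre replicate 3 the value for Il-17ra-Cre against Il-17rc-Cre was 2.30 (edgeR adjusted p = 0.00212). The summed level of 10 oligodendrocyte markers was 1020 to 1180 CPM in Il-17rb-Cre, 5410 to 45300 CPM in Il-17ra-Cre and 1050 to 4010 CPM in Il-17rc-Cre libraries, with none at 0, and its part in the Etv1 and Pou3f1 values was not tested. About 8.57% of the exonic length of Pou3f1 is shared with the opposite-strand gene Gm2164, which had 0 to 11 counts per library.

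Fezf2 and Bcl11b, the pair that directs subcerebral projection neurons, were both higher in Il-17rb-Cre than in Il-17ra-Cre libraries in CPM, and neither was higher relative to the excitatory markers. Fezf2 (ENSMUSG00000021743, chromosome 14, 12342094 to 12348189, minus strand), a zinc finger selector of subcortically projecting neurons, was at 66.7, 87.5 and 79.5 CPM in Il-17rb-Cre replicates, at 15.0, 17.7 and 37.5 CPM in Il-17ra-Cre replicates and at 31.2, 31.8, 19.4 and 29.1 CPM in Il-17rc-Cre replicates. All Il-17rb-Cre libraries lay above all others, and Il-17ra-Cre and Il-17rc-Cre overlapped. In CPM Fezf2 rose by 1.73 ± 0.34 against Il-17ra-Cre and by 1.48 ± 0.31 against Il-17rc-Cre (edgeR adjusted p = 0.00291 and 0.00400), with -0.25 ± 0.31 for Il-17ra-Cre against Il-17rc-Cre (edgeR adjusted p = 0.754). Without Il-17ra-Cre replicates 1 and 2 together the first value was 1.07 (edgeR adjusted p = 0.0462). Scaled to the excitatory markers it was at 11.7 ± 1.12% in Il-17rb-Cre, 15.5 ± 1.93% in Il-17ra-Cre and 16.2 ± 4.42% in Il-17rc-Cre libraries (SD), and no comparison passed (-0.41 ± 0.31, -0.46 ± 0.29 and -0.06 ± 0.29, edgeR adjusted p = 0.251, 0.175 and 0.932).

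Bcl11b (ENSMUSG00000048251, chromosome 12, 107910403 to 108003602, minus strand), which acts downstream of Fezf2 in layer 5 neurons, was at 62.5, 88.8 and 68.7 CPM in Il-17rb-Cre replicates, at 18.7, 26.9 and 39.6 CPM in Il-17ra-Cre replicates and at 57.1, 39.8, 73.5 and 37.4 CPM in Il-17rc-Cre replicates. Il-17rb-Cre lay above Il-17ra-Cre throughout and overlapped with Il-17rc-Cre. In CPM it rose by 1.37 ± 0.33 against Il-17ra-Cre (edgeR adjusted p = 0.00794) and did not pass against Il-17rc-Cre (0.50 ± 0.30, edgeR adjusted p = 0.212). The rise was lost without Il-17ra-Cre replicates 1 and 2 together (0.90, edgeR adjusted p = 0.181). For Il-17ra-Cre against Il-17rc-Cre it was at -0.87 ± 0.31 (edgeR adjusted p = 0.166), and it passed without Il-17ra-Cre replicate 3 (-1.19, edgeR adjusted p = 0.0374). The direction turned on the other scale: Bcl11b stood at 9.81%, 12.8% and 10.4% of the excitatory marker mean in Il-17rb-Cre, at 22.2%, 22.3% and 15.0% in Il-17ra-Cre and at 30.1%, 24.1%, 37.1% and 24.6% in Il-17rc-Cre libraries. The 3 groups did not overlap on that scale, with Il-17rb-Cre lowest and Il-17rc-Cre highest. Over all genes the medians for Il-17rb-Cre there were -1.90 against Il-17rc-Cre and -2.46 against Il-17ra-Cre. Bcl11b fell there by 1.39 ± 0.29 against Il-17rc-Cre (edgeR adjusted p = 0.00179) and by 0.85 ± 0.30 against Il-17ra-Cre (edgeR adjusted p = 0.0227), with -0.55 ± 0.28 for Il-17ra-Cre against Il-17rc-Cre (edgeR adjusted p = 0.337). The fall against Il-17ra-Cre was lost without Il-17ra-Cre replicate 2 or Il-17rb-Cre replicate 1 or 3 (-0.75, -0.77 and -0.81, edgeR adjusted p = 0.0773, 0.0833 and 0.0782). Summed markers of striatal projection neurons, another class that uses Bcl11b, were at 550 to 612 CPM in Il-17rb-Cre, 133 to 531 CPM in Il-17ra-Cre and 195 to 2040 CPM in Il-17rc-Cre libraries, with none of the 11 at 0. Among the Il-17rc-Cre libraries both Bcl11b and the striatal sum were highest in replicate 3 (2039 CPM of striatal markers) and second in replicate 1 (990.3 CPM). Replicates 2 and 4 did not keep this order, with Bcl11b at 39.8 and 37.4 CPM and striatal markers at 194.8 and 785 CPM. The part of striatal RNA in the Bcl11b values was not tested.

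Relative to the excitatory markers, the layer 6 factors Tbr1 and Foxp2 had the smallest log2 fold changes of the members between Il-17rb-Cre and Il-17ra-Cre libraries. With pan-neuronal markers as the scale these were 0.473 and 0.570, and neither passed. Tbr1 (ENSMUSG00000035033, chromosome 2, 61802930 to 61814114, plus strand) was at 140.9, 170.2 and 155 CPM in Il-17rb-Cre replicates, at 19.1, 24.2 and 89.9 CPM in Il-17ra-Cre replicates and at 40.5, 37.4, 37.0 and 48.4 CPM in Il-17rc-Cre replicates. All Il-17rb-Cre libraries lay above all others, and Il-17ra-Cre replicate 3 lay above and replicates 1 and 2 below the Il-17rc-Cre libraries. In CPM Tbr1 rose by 1.80 ± 0.49 against Il-17ra-Cre and by 1.93 ± 0.45 against Il-17rc-Cre (edgeR adjusted p = 0.0152 and 0.00723), and was at 0.12 ± 0.45 for Il-17ra-Cre against Il-17rc-Cre (edgeR adjusted p = 0.929). The rise against Il-17ra-Cre missed the threshold without Il-17ra-Cre replicate 2 (1.51, edgeR adjusted p = 0.051), and was 2.85 without replicate 3 and 0.80 without replicates 1 and 2. The rise against Il-17rc-Cre missed it without Il-17rc-Cre replicates 1 and 3 together (1.85, edgeR adjusted p = 0.0632). Without Il-17ra-Cre replicate 3 the value for Il-17ra-Cre against Il-17rc-Cre turned to -0.92 and passed (edgeR adjusted p = 0.00946). As a percentage of the excitatory markers Tbr1 was at 22.1%, 24.6% and 23.5% in Il-17rb-Cre, 22.6%, 20.1% and 34.0% in Il-17ra-Cre and 21.4%, 22.6%, 18.7% and 31.7% in Il-17rc-Cre libraries. The groups overlapped, with differences of -0.13 ± 0.31, -0.01 ± 0.29 and 0.12 ± 0.29 (edgeR adjusted p = 0.71, 0.971 and 0.845).

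Foxp2 (ENSMUSG00000029563, chromosome 6, 14901349 to 15441977, plus strand) had the lowest group means of the members in CPM, with 26.6, 32.8 and 21.04 CPM in Il-17rb-Cre replicates, 2.13, 4.67 and 15.1 CPM in Il-17ra-Cre replicates and 14.4, 8.57, 12.7 and 13.4 CPM in Il-17rc-Cre replicates. Every Il-17rb-Cre library lay above every other, and the Il-17ra-Cre libraries spanned the Il-17rc-Cre range. In CPM Foxp2 rose by 1.86 ± 0.58 against Il-17ra-Cre (edgeR adjusted p = 0.0272), and was at 1.13 ± 0.52 for Il-17rb-Cre and -0.73 ± 0.54 for Il-17ra-Cre, each against Il-17rc-Cre (edgeR adjusted p = 0.113 and 0.533). Without Il-17ra-Cre replicate 2 or Il-17rb-Cre replicate 1 or 2 the rise was lost (1.63, 1.89 and 1.70, edgeR adjusted p = 0.0916, 0.0555 and 0.0740). It was also lost without Il-17ra-Cre replicates 1 and 2 together (0.84, edgeR adjusted p = 0.157), without Il-17rc-Cre replicates 1 and 3 together (1.86, edgeR adjusted p = 0.055) and with only the 2 groups in the fit (1.89, edgeR adjusted p = 0.0653), and it was 2.98 without Il-17ra-Cre replicate 3. Without Il-17ra-Cre replicate 3 Foxp2 passed in both comparisons with Il-17rc-Cre, at 1.13 for Il-17rb-Cre and -1.85 for Il-17ra-Cre (edgeR adjusted p = 0.0119 and 0.0145), and without replicate 1 it passed for Il-17rb-Cre (1.07, edgeR adjusted p = 0.0477). Its level against the excitatory markers was 4.03 ± 0.78% in Il-17rb-Cre, 4.04 ± 1.60% in Il-17ra-Cre and 7.0 ± 1.57% in Il-17rc-Cre libraries (SD). No comparison passed on that scale (-0.0076 ± 0.38, -0.79 ± 0.36 and -0.79 ± 0.36, edgeR adjusted p = 0.987, 0.0649 and 0.296), although all Il-17rb-Cre values lay below all Il-17rc-Cre values. Over all genes the median for Il-17rb-Cre against Il-17rc-Cre was -1.90 there, with 70.8% called lower. The value against Il-17rc-Cre passed for Il-17rb-Cre without Il-17ra-Cre replicate 1 or 3 (-0.79 in each, edgeR adjusted p = 0.0366 and 0.0225), and for Il-17ra-Cre without its replicate 3 (-1.13, edgeR adjusted p = 0.0231).

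**Figure D3:**
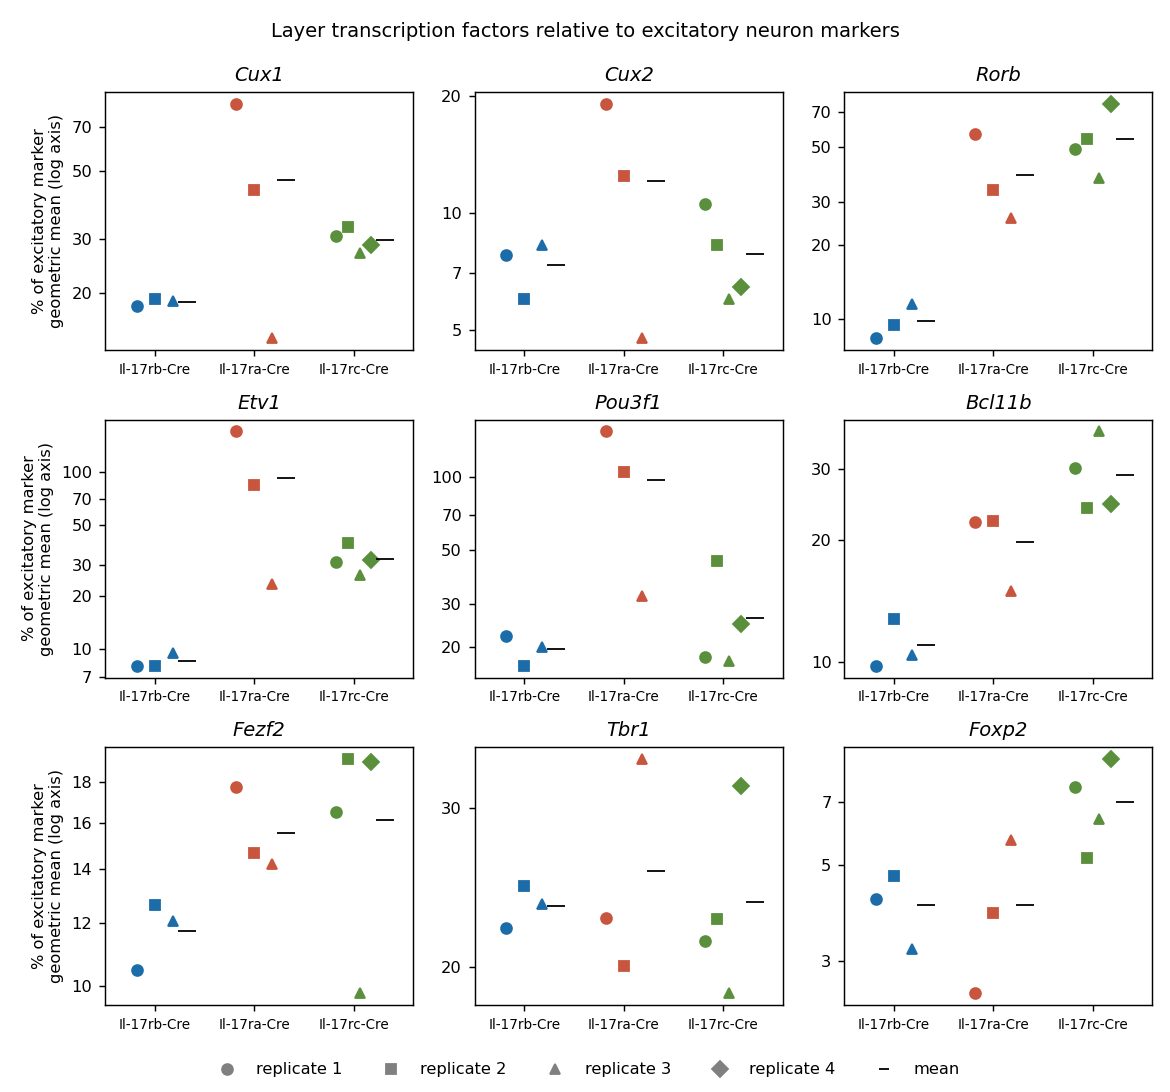
Counts of the 9 layer factors as a percentage of the geometric mean count of 10 excitatory neuron markers in the same library (vertical log axes), by driver line, with the mean as a bar. Rorb, Etv1 and Bcl11b lie below both other groups in all 3 Il-17rb-Cre libraries, although Bcl11b lay above Il-17ra-Cre in CPM. Most genes fall there on this scale: 76.9% were called lower against Il-17ra-Cre and 70.8% against Il-17rc-Cre. The medians over all genes were -2.46 and -1.90. Tbr1 lies between 18.7% and 34.0% throughout.

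Levels were compared between genes as RPKM, CPM per 1000 bases of merged exons. In Il-17rb-Cre libraries the order by mean RPKM was Pou3f1 (33.6 ± 3.28, SD, n = 3), Tbr1 (28.3 ± 2.67), Fezf2 (25.6 ± 3.44), Bcl11b (9.04 ± 1.69), Cux1 (6.18 ± 0.42), Rorb (5.85 ± 1.03), Cux2 (4.82 ± 0.65), Etv1 (4.26 ± 0.42) and Foxp2 (1.64 ± 0.36). Pou3f1, Tbr1 and Fezf2 overlapped with their neighbours in RPKM and all lay above Bcl11b, Bcl11b lay above Cux1, the genes between Cux1 and Etv1 overlapped with their neighbours, and Foxp2 lay below all. In Il-17ra-Cre libraries Pou3f1 was again first in RPKM (29.6 ± 6.46), above all other members without overlap. It was followed by Tbr1 (8.09 ± 7.19), Etv1 (7.68 ± 3.06), Fezf2 (7.68 ± 4.05), Rorb (4.71 ± 1.29), Bcl11b (3.50 ± 1.30) and Cux1 (2.67 ± 0.82), each overlapping with the next in RPKM, and then without overlap by Cux2 (1.45 ± 0.18) and Foxp2 (0.447 ± 0.421). Il-17rc-Cre libraries had Pou3f1 (11.8 ± 5.07, n = 4), Fezf2 (9.15 ± 1.90), Rorb (8.41 ± 1.51), Tbr1 (7.44 ± 0.96), Bcl11b (6.40 ± 2.07) and Etv1 (4.24 ± 0.57) in a chain of overlapping RPKM ranges, and below them, without overlap, Cux1 (2.61 ± 0.30), Cux2 (1.37 ± 0.44) and Foxp2 (0.750 ± 0.157). The RPKM order depends on the length used: per coding length Rorb was first (65.8) and Etv1 second (35.6) in Il-17rc-Cre libraries. Rorb has 11076 bases of merged exons and 1417 of coding sequence, and Etv1 has 13296 and 1585.

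Within a library, the ratio of an upper-layer to a deep-layer factor does not depend on how libraries are scaled. The log2 RPKM ratio of Cux2 to Tbr1 averaged -2.56 ± 0.31 in Il-17rb-Cre, -2.13 ± 1.39 in Il-17ra-Cre and -2.48 ± 0.53 in Il-17rc-Cre libraries (SD, n = 3, 3 and 4), and the groups overlapped. The ratio of Cux2 to Fezf2 averaged -2.41 ± 0.35 in Il-17rb-Cre, -2.29 ± 0.89 in Il-17ra-Cre and -2.76 ± 0.44 in Il-17rc-Cre libraries. The log2 ratio of Cux2 to Bcl11b was -1.41 to -0.65 in Il-17rb-Cre, -1.97 to -0.53 in Il-17ra-Cre and -2.95 to -1.82 in Il-17rc-Cre libraries, so that Il-17rb-Cre and Il-17rc-Cre did not overlap. Cux1 to Bcl11b differed likewise, at -0.73 to -0.42 in Il-17rb-Cre, -1.38 to 0.61 in Il-17ra-Cre and -1.77 to -0.86 in Il-17rc-Cre libraries. Cux1 to Tbr1 ran the other way, at -2.23 to -2.16 in Il-17rb-Cre and -2.01 to -1.33 in Il-17rc-Cre libraries without overlap, with -3.13 to 0.01 in Il-17ra-Cre libraries. The Il-17ra-Cre libraries spread most, and the log2 ratio of Cux1 to Foxp2 ran from 1.02 to 4.75 in them, against 1.72 to 2.27 in Il-17rb-Cre and 1.41 to 2.37 in Il-17rc-Cre libraries. No test was made of these ratios.

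Patterns over the 10 libraries were compared by the root mean square difference of centred log2 CPM, in which 0 means the same pattern. Among the 36 pairs of layer factors the smallest differences were 0.338 for Fezf2 and Tbr1 and 0.349 for Cux1 and Cux2, followed by 0.510 for Tbr1 and Foxp2. The largest was 1.55 for Foxp2 and Etv1. Among 9554 other genes, the nearest to each factor were Rap1gap2 and Numbl for Fezf2 (0.148 and 0.172), Khdrbs3 and Gng2 for Tbr1 (0.155 and 0.165), Scrt2 and Neu2 for Foxp2 (0.243 and 0.277), and Fndc5 and Rhobtb2 for Bcl11b (0.160 and 0.174). For the upper-layer factors they were Dctn1 and Osbpl1a for Cux1 (0.159 and 0.175) and Rwdd2a and Osbpl1a for Cux2 (0.226 and 0.236). They were Srxn1 and Ckap4 for Rorb (0.147 and 0.208), Fbxl5 and Rbbp4 for Etv1 (0.0985 and 0.102), and Slc24a2 and Kcna1 for Pou3f1 (0.233 and 0.259). The SD of the factors themselves over the libraries ran between 0.439 for Rorb and 1.12 for Foxp2 on the log2 scale, so small differences are easier to reach for Rorb and Etv1 (0.466). The libraries share groups and marker levels, and the measure carries no test.

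**Figure D4:**
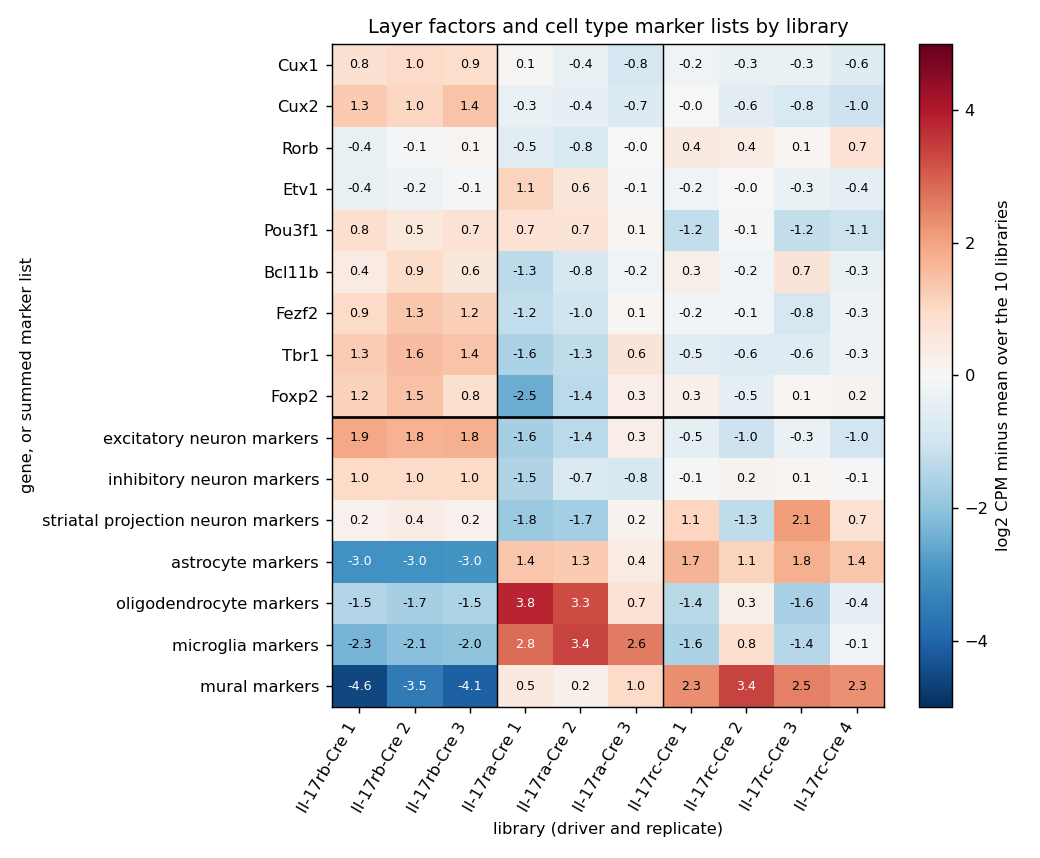
Log2 CPM of each layer factor, and of the summed CPM of 7 marker lists, minus its mean over the 10 libraries (colour and printed value), with libraries in columns by driver line. The rows of Tbr1, Fezf2 and Foxp2 resemble that of the excitatory markers, with Il-17ra-Cre replicate 3 above replicates 1 and 2. Bcl11b and Rorb also have replicate 3 above replicates 1 and 2. Etv1, by contrast, is highest in the Il-17ra-Cre libraries with the most oligodendrocyte markers.

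Other factors of cortical neuron identity were taken from a list of 28 genes, all of which were tested. In CPM, 14 were higher and 2 lower in Il-17rb-Cre than in Il-17ra-Cre libraries (median log2 fold change 1.03), and 13 higher and 4 lower than in Il-17rc-Cre libraries (median 0.62). Of all genes tested, 16.2% were higher and 24.1% lower in the first comparison and 17.6% and 21.7% in the second. Relative to the excitatory markers these became 18 and 17 of 28 lower, with 0 higher in either (edgeR; 0 higher also at an unadjusted p under 0.05), where 76.9% and 70.8% of all genes were lower, a larger share than in the list. None differed between Il-17ra-Cre and Il-17rc-Cre libraries on either scale (edgeR; 1 higher and 5 lower in CPM, and 2 higher and 1 lower relative to the excitatory markers, at an unadjusted p under 0.05). At that threshold 2181 of all genes were higher and 1536 lower in CPM, and 2972 and 455 relative to the excitatory markers. Mef2c, a MADS-box factor of upper-layer and layer 4 neurons, averaged 785 CPM in Il-17rb-Cre, 219 CPM in Il-17ra-Cre and 244 CPM in Il-17rc-Cre libraries, a log2 fold change of 1.84 ± 0.20 against Il-17ra-Cre and 1.69 ± 0.18 against Il-17rc-Cre (edgeR adjusted p = 1.14e-04 and 8.91e-05). Bhlhe22, Zbtb18, Ldb2 and Nfix rose in the same way in CPM, by 1.80, 1.57, 2.14 and 1.06 against Il-17ra-Cre (edgeR adjusted p between 2.05e-04 and 3.61e-04) and by 1.88, 1.35, 1.62 and 1.15 against Il-17rc-Cre (edgeR adjusted p between 7.59e-05 and 7.28e-04). Nfia, a nuclear factor also used by astrocytes, averaged 15.0 CPM in Il-17rb-Cre, 40.0 CPM in Il-17ra-Cre and 36.5 CPM in Il-17rc-Cre libraries and fell by 1.41 and 1.28 (edgeR adjusted p = 0.00181 and 0.00231). Bcl6 fell by 1.09 against Il-17ra-Cre and by 0.74 against Il-17rc-Cre (edgeR adjusted p = 0.00731 and 0.0353). Lhx2 and Nfib fell against Il-17rc-Cre by 0.88 and 0.38 (edgeR adjusted p = 0.0202 and 0.0408).

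Among layer genes that are not transcription factors, the layer 4 list had the highest median on both scales in Il-17rb-Cre libraries. In CPM, 3 of 6 layer 2/3 genes were higher and 1 lower in Il-17rb-Cre than in Il-17ra-Cre libraries, 4 of 6 layer 4 genes were higher, 1 of 8 layer 5 genes was lower, and 2 of 8 layer 6 genes were higher and 1 lower. Against Il-17rc-Cre libraries 3 of 6 layer 2/3 genes were higher and 1 lower, 3 of 6 layer 4 genes and 2 of 8 layer 6 genes were higher, and of the layer 5 genes 0 of 8 passed (edgeR; 2 higher and 0 lower at an unadjusted p under 0.05). At that unadjusted threshold 4519 of all genes were higher and 5286 lower. The shares of all genes were 16.2% higher and 24.1% lower against Il-17ra-Cre, and 17.6% and 21.7% against Il-17rc-Cre, so nothing is read from a count such as 1 of 8. The lists' median log2 fold changes were 1.35, 2.23, 0.64 and 0.76 in layer order against Il-17ra-Cre, and 0.82, 1.63, 0.94 and 0.63 against Il-17rc-Cre. Relative to the excitatory markers those medians were -0.87, 0.05, -1.47 and -1.21 against Il-17ra-Cre, and -1.08, -0.27, -1.0 and -1.33 against Il-17rc-Cre. On that scale 2 of 6 layer 4 genes were higher and 2 lower against Il-17ra-Cre, and 2 higher and 3 lower against Il-17rc-Cre, beside 76.9% and 70.8% of all genes lower and 0.251% and 0.167% higher, while Rorb fell in both comparisons. No gene of the 4 lists passed between Il-17ra-Cre and Il-17rc-Cre libraries on either scale (edgeR). At an unadjusted p under 0.05, 1 layer 2/3, 2 layer 4 and 1 layer 5 genes were lower there in CPM and 1 layer 5 gene higher, and 2 layer 5 genes were higher relative to the excitatory markers. By the same threshold 2181 of all genes were higher and 1536 lower in CPM, and 2972 and 455 relative to the excitatory markers.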

How the data were processed

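The deposited table holds raw read counts per Ensembl gene. STAR 2.7.5c and GRCm38 are named in the submitters' processing notes, while read assignment to genes and its strand setting were not given in the sources used here. Per the labels' protocols, libraries were made with a cDNA amplification kit that does not mark strand, so reads on overlapping genes cannot be separated (1.97% of the exonic length of Cux1 is shared with Gm16599, which had 0 counts). Symbols, coordinates and lengths came from GENCODE M21 (GRCm38), in which all 55536 identifiers matched. Genes passing edgeR's filter by group were kept, 20301 tested and 35235 removed. Library sizes were TMM-scaled, and edgeR 4.0.16 was used for testing (robust quasi-likelihood F test, R 4.3.3), with all 10 libraries in 1 model, Benjamini-Hochberg adjustment over all tested genes at 0.05 and a biological coefficient of variation of 0.489. The same test was run with library sizes set to the geometric mean count of 10 excitatory neuron markers (a count of 0.5 added). Standard errors of log2 fold changes are the log2 fold change over the root of F. Library totals between 39692925 and 165844244 reads set the precision, and amplification without molecular identifiers adds variation beyond counting error.

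Alternatives were edgeR with DESeq2 or upper quartile size factors, DESeq2 1.42.0, limma 3.58.1 voom with quality weights, no filter or 1 CPM in 3 libraries, only the 2 groups compared, a replicate block, pan-neuronal in place of excitatory markers, coding or longest transcript length, and libraries left out. The 9 factors, the 28 other identity factors, the 15 marker and layer lists and the tests were chosen with earlier results of these data known. Named were all 9 factors, up to 5 other factors per direction and comparison with the smallest p, the 2 most abundant members of each marker list, and the 2 genes with the pattern most like each factor (protein coding, mean log2 CPM of at least 3). Replicate pairs within a group differed by a chi-square of 33.8 to 1000 per gene, more than counting error gives. No pair of columns thus held the same counts, but repeat preparations of 1 RNA cannot be told apart from separate samples this way.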

Additional observations from a re-analysis of the deposited data

Results flagged for a closer look

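Pou3f1 was at 74.5 CPM in Il-17rc-Cre replicate 2, against 34.2 to 38.0 CPM in the other 3 Il-17rc-Cre libraries. It was flagged because its gap to the nearest library was 0.907 of the range of the group, above the critical value of Dixon's test, which chance passes in about 1 of 20 groups. The same library had the most oligodendrocyte markers (4010 CPM) and the fewest striatal markers (194.8 CPM) of its group. It was also the highest of its group in precursor (133.6 CPM), microglial (205.2 CPM), endothelial (206.3 CPM) and mural (1066 CPM) markers. The same held for its inhibitory, pan-neuronal and thalamic sums. Its astrocyte (11560 CPM) and excitatory (2934 CPM) sums were the lowest of the group. The part of any of these cell types in the Pou3f1 value was not tested. Without this library the log2 fold change of Pou3f1 was 1.86 for Il-17rb-Cre and 1.68 for Il-17ra-Cre, each against Il-17rc-Cre (both past an edgeR adjusted p of 0.05).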

How the results depend on the processing

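Of 13 calls among the layer factors in CPM, 7 held in all 21 alternatives: Cux1, Cux2 and Fezf2 in both comparisons of Il-17rb-Cre, and Pou3f1 for Il-17rb-Cre against Il-17rc-Cre. Of 8 calls relative to the excitatory markers, 5 held in all 17 alternatives. Of the differences that had not passed, 7 in CPM and 8 on the other scale did so with the same sign in at least 1. In CPM, Tbr1 for Il-17ra-Cre against Il-17rc-Cre also passed, with its sign turned, without Il-17ra-Cre replicate 3 (-0.916, edgeR adjusted p = 0.00946). Changes between settings are given as values, and the cause was not tested. The lowest raw count of a member in any library was 79 (Foxp2), and the comparisons rest on 3 or 4 libraries a group. Deviations of same-numbered libraries correlated at -0.0826 to 0.181, by the number of the title or of the library name. Those of other libraries correlated at -0.195 to 0.0838 by title number and at -0.195 to 0.125 by library name number. These ranges overlap, and with 3 or 4 libraries a group they cannot show whether the numbers pair the libraries. With the replicate block (number of the title, then of the library name), the genes called for Il-17ra-Cre against Il-17rc-Cre numbered 2 and 1 of all genes in place of 421, and 0 layer factors were called higher there or lower in Il-17rb-Cre against Il-17ra-Cre. The replicate block by library name called 1 factor lower in Il-17rb-Cre against Il-17rc-Cre. Relative to the excitatory markers both blocks called 3 factors lower in Il-17rb-Cre against Il-17ra-Cre in place of 5.

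For Il-17ra-Cre against Il-17rc-Cre the genes called were 2101 with DESeq2, 4579 with limma voom, 681 with 1 CPM in 3 libraries, 1 with only the 2 groups compared, 0 without Il-17ra-Cre replicates 1 and 2 and 0 without Il-17rc-Cre replicates 1 and 3. There DESeq2 called 2 factors higher and 2 lower, limma voom 2 and 3, and DESeq2 size factors, the 2 groups alone and either pair left out 0 higher. For Il-17rb-Cre against Il-17ra-Cre, 4194 genes were called without Il-17ra-Cre replicates 1 and 2 in place of 8184, a fit with 1 library left in that group, which is assumed to vary like the others. The fall of Etv1 was lost (0 lower) in that fit, with the 2 groups alone and without Il-17rc-Cre replicates 1 and 3. Against Il-17rc-Cre, Rorb was called lower (1 factor) with DESeq2, DESeq2 size factors, the 2 groups alone and without Il-17ra-Cre replicates 1 and 2. Relative to the excitatory markers, 3 factors were lower in Il-17rb-Cre against Il-17ra-Cre with the pan-neuronal list or the 2 groups alone and 2 without Il-17ra-Cre replicates 1 and 2. Against Il-17rc-Cre 5 were lower with the 2 groups alone or without those replicates, and Cux1 alone (1 factor) was lower in Il-17ra-Cre against Il-17rc-Cre without them.

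With 1 library left out at a time, the genes called ran between 0 and 2838 for Il-17ra-Cre against Il-17rc-Cre, 6468 and 9840 for Il-17rb-Cre against Il-17ra-Cre, and 5884 and 9091 for Il-17rb-Cre against Il-17rc-Cre. The factors called higher were 4 to 6 for Il-17rb-Cre against Il-17ra-Cre, 5 to 6 against Il-17rc-Cre and 0 to 2 for Il-17ra-Cre against Il-17rc-Cre, and those called lower 0 to 1, 0 to 1 and 0 to 4. Relative to the excitatory markers, 3 to 6, 3 to 5 and 0 to 1 were lower, and 0, 0 and 0 to 4 higher. The highest number of genes for Il-17ra-Cre against Il-17rc-Cre came without Il-17ra-Cre replicate 3.

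Differences whose sign turned were mostly close to 0. For Etv1 in Il-17rb-Cre against Il-17rc-Cre they were -0.074 with DESeq2 and with its size factors, -0.0592 with no filter, -0.0306 with 1 CPM in 3 libraries, -0.11 with 2 groups, -0.0359 and -0.00174 with the replicate blocks, -0.0538 and -0.0194 without the pair of Il-17ra-Cre (1 and 2) or Il-17rc-Cre (1 and 3) libraries, and -0.135 to 0.0849 with 1 library left out. For Cux1 in Il-17ra-Cre against Il-17rc-Cre they were -0.0266, -0.0106 and -0.027 with DESeq2 size factors, upper quartile scaling and DESeq2, -0.0332 and -0.00856 with no filter and 1 CPM, -0.0155 with 2 groups, -0.0734 with the title block, -0.553 without the Il-17ra-Cre pair and -0.29 to 0.232 with 1 library left out. In the same comparison Cux2 was at -0.0379 with the title block, -0.214 without the Il-17ra-Cre pair and -0.0808 to 0.304 with 1 left out. Tbr1 was at -0.638 with limma voom, -0.0494 and -0.177 with the blocks and -0.916 to 0.414 with 1 left out, and Fezf2 and Foxp2 at 0.358 and 0.226 without the Il-17ra-Cre pair. Without that pair Rorb was at -0.0573 in Il-17rb-Cre against Il-17ra-Cre.

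Scaling to the pan-neuronal list turned Cux2, Fezf2, Tbr1 and Foxp2 to 0.133, 0.302, 0.473 and 0.570 for Il-17rb-Cre against Il-17ra-Cre, Cux2, Fezf2, Tbr1 and Pou3f1 to 0.355, 0.023, 0.452 and 0.086 against Il-17rc-Cre, and Tbr1 to -0.0205 for Il-17ra-Cre against Il-17rc-Cre; none of these passed. On the scale of the excitatory markers the blocks turned Foxp2 to 0.0251 and 0.0592 for Il-17rb-Cre against Il-17ra-Cre, and the title block Tbr1 to 0.156 for Il-17rb-Cre and Fezf2 to 0.0676 for Il-17ra-Cre, each against Il-17rc-Cre. Without the Il-17ra-Cre pair, Cux1 and Cux2 were at 0.395 and 0.629 for Il-17rb-Cre against Il-17ra-Cre, and Cux1, Cux2 and Etv1 at -1.07, -0.717 and -0.474 for Il-17ra-Cre against Il-17rc-Cre. Tbr1 was at -0.0868 there without the Il-17rc-Cre pair. With 1 library left out, the values on that scale that turned ran, for Il-17ra-Cre against Il-17rc-Cre, from -0.0452 to 1.09 for Cux1, -0.234 to 0.0388 for Fezf2 and -0.145 to 0.292 for Tbr1. They ran from -0.252 to 0.331 for Foxp2 and -0.277 to 0.132 for Tbr1 in Il-17rb-Cre against Il-17ra-Cre, and from -0.197 to 0.0914 for Cux2 and -0.11 to 0.162 for Tbr1 against Il-17rc-Cre. Ratios between factors move with the length used by the same amount in every library, so differences between groups do not; the log2 ratio of Cux1 to Bcl11b in Il-17rb-Cre libraries was -0.535 on merged exons and 0.104 on the longest transcript.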

Other observations

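The marker lists of other cells differed between the drivers in CPM, with counts from the edgeR test over all genes. In Il-17rb-Cre libraries 16.2% of all genes were higher and 24.1% lower against Il-17ra-Cre, and 17.6% and 21.7% against Il-17rc-Cre. For Il-17ra-Cre against Il-17rc-Cre the shares were 1.32% and 0.759%, and at an unadjusted p under 0.05, 2181 of the 20301 genes were higher and 1536 lower. Nothing is read from counts near those shares, such as 3 of 14 or 1 of 11. Of 10 excitatory neuron markers, led by Nrgn and Slc17a7, 10 were higher in Il-17rb-Cre than in Il-17ra-Cre libraries and 9 higher than in Il-17rc-Cre libraries, with 0 between Il-17ra-Cre and Il-17rc-Cre (0 higher and 1 lower at an unadjusted p under 0.05). Of 10 pan-neuronal genes, 8 were higher and 1 lower against Il-17ra-Cre, 8 higher against Il-17rc-Cre, and 1 was higher in Il-17ra-Cre against Il-17rc-Cre. Snap25 and Tubb3 were the most abundant of them. Tubb3 was at 561 to 593 CPM in Il-17rb-Cre libraries, but at 2914, 2315 and 454 CPM in Il-17ra-Cre replicates. Of 14 inhibitory neuron markers, led by Sst and Npy, 8 were higher against Il-17ra-Cre, 3 higher and 2 lower against Il-17rc-Cre, and 2 lower in Il-17ra-Cre against Il-17rc-Cre. Their summed level was 1400 to 1440 CPM in Il-17rb-Cre, 255 to 437 CPM in Il-17ra-Cre and 672 to 810 CPM in Il-17rc-Cre libraries, without overlap between groups. Of 11 striatal projection neuron markers, led by Ppp1r1b and Penk, 1 was higher in Il-17rb-Cre against Il-17ra-Cre, 3 were lower against Il-17rc-Cre and 1 was lower in Il-17ra-Cre against Il-17rc-Cre. Of 7 thalamic neuron genes 5 were tested, with Prkcd and Tcf7l2 the most abundant, and 1 was higher and 3 lower in Il-17rb-Cre against either group, with 0 between Il-17ra-Cre and Il-17rc-Cre (0 higher and 2 lower at an unadjusted p under 0.05). Lhx9 had no count in any group, and Gbx2 had counts in Il-17rc-Cre libraries only.

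Glial and vascular markers mostly ran the other way. Of all genes, 24.1% were lower in Il-17rb-Cre against Il-17ra-Cre and 21.7% against Il-17rc-Cre libraries. Nothing is read from counts near or below those shares, such as 3 of 9 or 1 of 10. In Il-17rb-Cre against Il-17ra-Cre and Il-17rc-Cre libraries, 11 and 12 of 12 astrocyte markers (led by Gfap and Aldoc) were lower. So were 10 and 1 of 10 oligodendrocyte markers (Mbp and Cnp), 5 and 3 of 8 oligodendrocyte precursor markers and 11 and 6 of 11 microglial markers (C1qb and C1qa). Also lower were 3 and 6 of 9 endothelial markers (Ly6c1 and Cldn5) and 7 and 8 of 8 mural markers (Vtn and Rgs5). Itgam had no count in Il-17rb-Cre libraries. Names are the most abundant members of each list, whether called or not. For the precursors these were Cspg4 and Tnr. Tnr overlapped between all groups, at 7.52 to 10.1 CPM in Il-17rb-Cre, 5.75 to 10.4 CPM in Il-17ra-Cre and 3.20 to 7.69 CPM in Il-17rc-Cre libraries. Between Il-17ra-Cre and Il-17rc-Cre libraries, 9 oligodendrocyte and 6 microglial markers were higher and 1 astrocyte and 3 mural markers lower. Over all genes 1.32% were higher and 0.759% lower in that comparison. Of the precursor and endothelial markers 0 passed there (4 and 1 higher, and 0 and 1 lower, at an unadjusted p under 0.05). At that unadjusted threshold 2181 of the 20301 genes were higher and 1536 lower. The most abundant members of the layer lists were Lamp5 and Calb1, Rspo1 and Tmem215, Pcp4 and Parm1, and Rprm and Crym, in order from layer 2/3 to layer 6.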
